A study of Mus musculus with 10 samples.

Results

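The transcription factors of the AP-1 group were followed in the preoptic region of mice given lipopolysaccharide (LPS), through every probe set whose annotation names exactly 1 gene and whose gene is Fos, Fosb, Fosl1, Fosl2, Jun, Junb, Jund, Atf3 or Maff. This gave 13 probe sets for 9 genes, out of 45101 probe sets and 18193 genes on the array. Of the 9 genes, 4 (Fosl1, Fosl2, Jun and Jund) had 2 probe sets and 5 had 1.

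AP-1 proteins bind DNA as dimers joined by a leucine zipper. Fos proteins need a Jun partner, Jun proteins can also pair with each other, Atf3 pairs with Jun proteins or with itself, and Maff, a small Maf protein without an activation domain, pairs with other leucine zipper factors. Many of these genes are immediate early genes: their transcription starts within minutes of a stimulus and falls off within hours, and in the brain Fos is widely used to mark neurons that have been active, including preoptic neurons during fever. Jund differs in that it is transcribed in resting cells of most tissues.

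The tissue came from 5 mice labelled mPGES-1 knockout (KO) and 5 labelled wild-type (WT), all on the DBA1/lacJ background and all injected intraperitoneally with LPS at 120 µg/kg. Brains were taken 5 h after the injection, the preoptic region was isolated by laser capture microdissection, and each mouse gave 1 array. mPGES-1, encoded by Ptges, is the synthase that raises prostaglandin E2 output during inflammation. The labels give neither the deleted part of Ptges nor the sex or age of the mice, and mice not given LPS were not analysed here. Every level is therefore one 5 h after LPS, and no response to LPS was measured. In bulk tissue, fewer cells of a type and less RNA per cell cannot be told apart.

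Some array-wide values differed between the groups. The Ptges transcript was not lower under the KO label, and each of its probe sets averaged higher there, at low signal. Probe set 1439747_at averaged 49.96 ± 24.5 in KO-labelled and 4.54 ± 3.09 in WT-labelled mice (SD, n = 5 each). The groups did not overlap on it, as on 3.22% of all probe sets. On 1449449_at the averages were 40.2 ± 21.5 and 13.4 ± 13.6, and on 1449450_at 37.3 ± 15.9 and 30.7 ± 19.7, with overlap on both. The limma adjusted p over all probe sets was 0.111, 0.302 and 0.774. Directions below therefore rest on the labels. The median log2 signal of the arrays lay between 5.34 and 5.52 in KO-labelled mice, below the 5.59 to 5.93 of WT-labelled mice. The bacterial and phage controls added at hybridization averaged 10.15 to 11.10 in KO-labelled and 10.76 to 12.18 in WT-labelled mice on the log2 scale. RNA spike-ins gave signal on 7 arrays and not on KO replicate 3, WT replicate 2 and WT replicate 5.

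To show the regulatory DNA of the genes the results turn on, the 130 bases before the RefSeq transcription start (GRCm38.p6) are printed for Fos, for Jun and Jund, and for Fosl2 and Atf3, which varied most closely together. Each is read 5′ to 3′ on the strand of its gene. Capitals mark TGACG on either strand, the core of the cyclic AMP response element through which CREB and ATF proteins act, and TGACNTCA on either strand, an AP-1-like sequence in the Jun promoter.
Fos, chr12:85473760-85473889, plus strand: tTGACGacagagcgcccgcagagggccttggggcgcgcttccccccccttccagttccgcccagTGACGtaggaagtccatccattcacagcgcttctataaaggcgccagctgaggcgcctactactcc
Jun, chr4:95052223-95052352, minus strand: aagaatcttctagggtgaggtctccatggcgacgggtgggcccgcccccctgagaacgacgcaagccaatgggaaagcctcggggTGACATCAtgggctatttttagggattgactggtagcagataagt
Jund, chr8:70697609-70697738, plus strand: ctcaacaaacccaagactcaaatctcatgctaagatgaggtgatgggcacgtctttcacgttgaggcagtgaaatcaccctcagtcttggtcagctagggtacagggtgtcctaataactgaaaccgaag
Fosl2, chr5:32136342-32136471, plus strand: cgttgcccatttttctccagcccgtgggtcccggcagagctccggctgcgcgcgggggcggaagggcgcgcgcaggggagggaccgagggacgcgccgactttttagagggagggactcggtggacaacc
Atf3, chr1:191183334-191183463, minus strand: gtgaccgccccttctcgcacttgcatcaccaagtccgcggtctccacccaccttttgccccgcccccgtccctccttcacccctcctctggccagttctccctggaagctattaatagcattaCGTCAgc

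Fos carried TGACG 129 and 66 bases before its start, with a TATAAA sequence 33 bases before it, and Atf3 carried it 7 bases before its start on the opposite strand. The table holds 10 starts for 8 of the members, 3 of them for Maff. In the 250 bases before the start, TGACG occurred at 6 of these 10 starts (Fos, Fosb, Junb, Atf3 and 2 of Maff), against 17.8% of the 32851 starts in the table. The full element TGACGTCA, which contains TGACG, occurred at 1 of the 10, the second Maff start, and at 1.55% of all starts. The AP-1 site TGACTCA was found at 0 of the 10 and at 4.46% of all starts, and TGACNTCA, which includes TGACGTCA, at 3 of the 10 (Jun and 2 of Maff) and at 7.49% of all. Jund and Fosl2 held none of these sequences in this window. These matches describe the DNA and show no binding.

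Jund was lower in every KO-labelled mouse than in any WT-labelled mouse, but the difference missed the threshold over all genes. Its probe set 1449117_at read 689, 705, 645, 744 and 847 in KO-labelled replicates 1 to 5, against 1086, 1104, 1644, 1014 and 1067 in WT-labelled replicates 1 to 5. The groups did not overlap, and WT replicate 3 was far above the other WT-labelled mice. The means were 726 ± 76.4 in KO-labelled and 1183 ± 260.1 in WT-labelled mice (SD, n = 5 each). On the scale used for testing, log2(intensity + 16), the difference of labelled KO minus labelled WT was -0.67 (SE 0.16, 95% interval -1.01 to -0.34), a 1.6-fold lower signal in KO-labelled mice.

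The limma Benjamini-Hochberg adjusted p of Jund was 0.067 over the 10916 genes tested, which were the genes left after the dimmest 40% were removed, and 0.143 over all 45037 probe sets that are not controls. The two-sided exact permutation test of this probe set gave p = 0.0079, the smallest that 5 against 5 arrays allow. Groups without overlap were also found in 4.68% of all tested genes, and in 2.75% with KO-labelled mice lower. Over all probe sets these shares were 3.22% and 2.42%. The second Jund probe set, 1440265_at, was dim. It read 7.16, 19.4, 7.54, 20.6 and 3.17 in KO-labelled mice and 24.1, 37.8, 3.09, 24.3 and 20.8 in WT-labelled mice. The groups overlapped there, through WT replicate 3, the lowest array of all on this probe set and the highest on the other one, and the difference was -0.43 (SE 0.31).

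**Figure D1:**
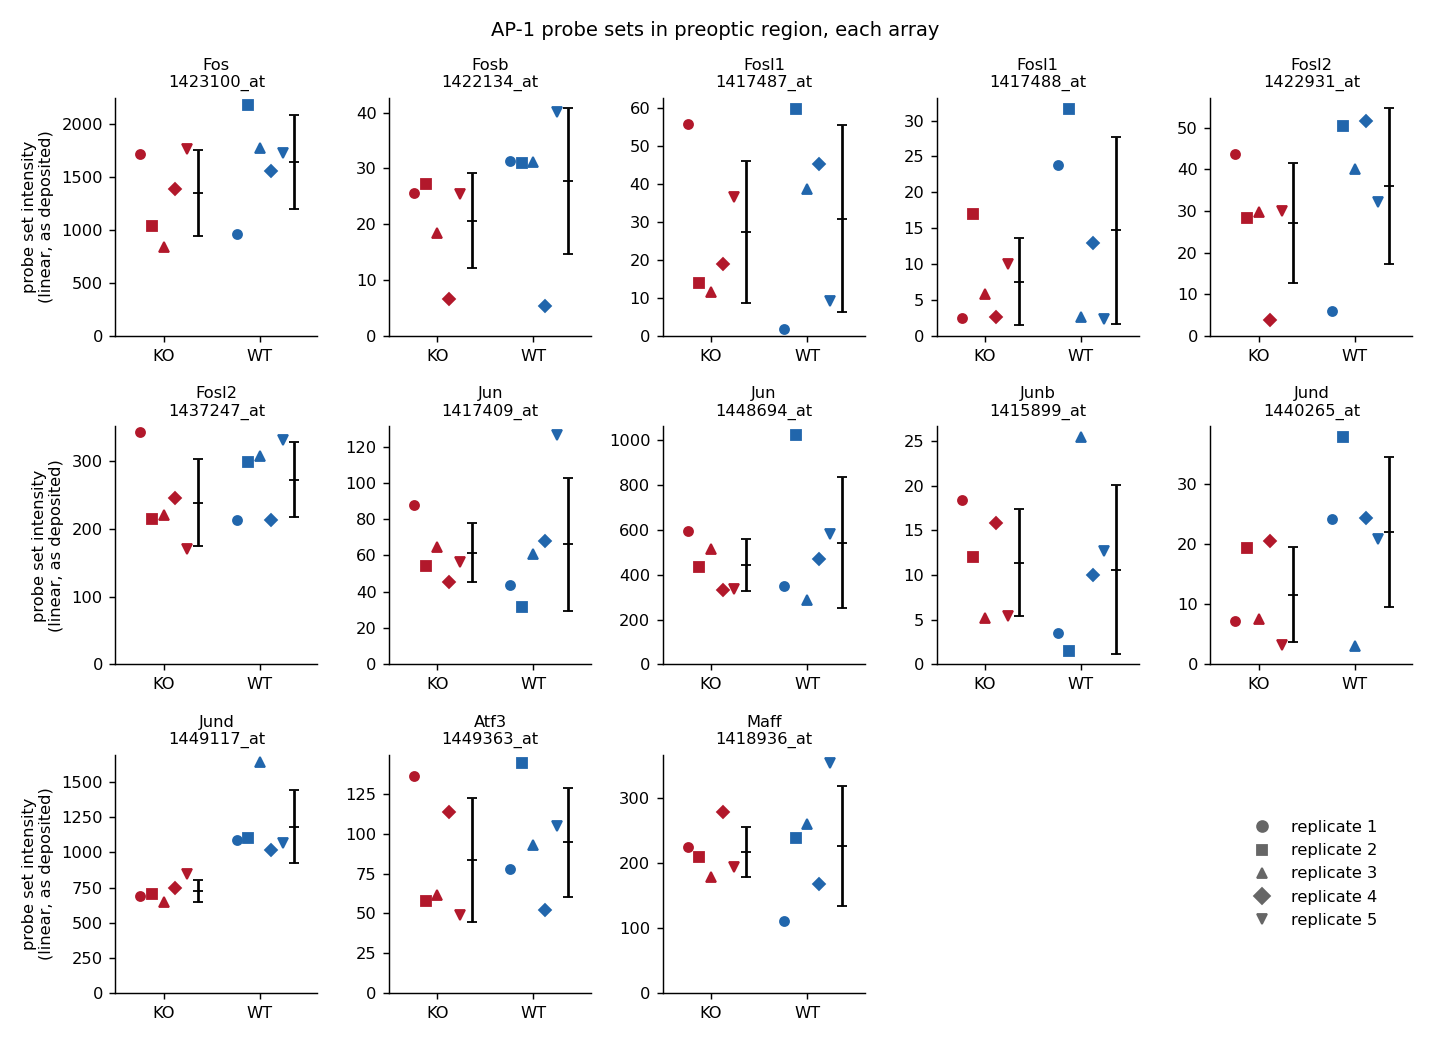
Probe set intensity (linear, as deposited) of the 13 AP-1 probe sets on each array, KO-labelled mice in red on the left and WT-labelled mice in blue on the right, with the mean and SD of each group in black (n = 5 each) and 1 marker shape per replicate number. Only Jund 1449117_at shows groups that do not overlap, with 645 to 847 in KO-labelled and 1014 to 1644 in WT-labelled mice.

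Under other settings the Jund difference lay between -0.75 and -0.39. It was -0.70 (SE 0.19) among the 7 arrays with spike-in signal. Among the 3 without it, 1 KO-labelled array against 2 WT-labelled arrays, it was -0.74, with no replicate check. With the hybridization controls as a covariate it was -0.63 (SE 0.23). Quantile normalization gave -0.75. Centring each array on its median moved the median difference of all tested genes from -0.01 to 0.27 and Jund to -0.39. That step adds the same amount to the difference of every gene. Leaving out 1 array at a time gave -0.73 to -0.55, with -0.55 reached without WT replicate 3. The part of the spike-ins, of the hybridization and of the scaling in the difference was not tested.

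**Figure D2:**
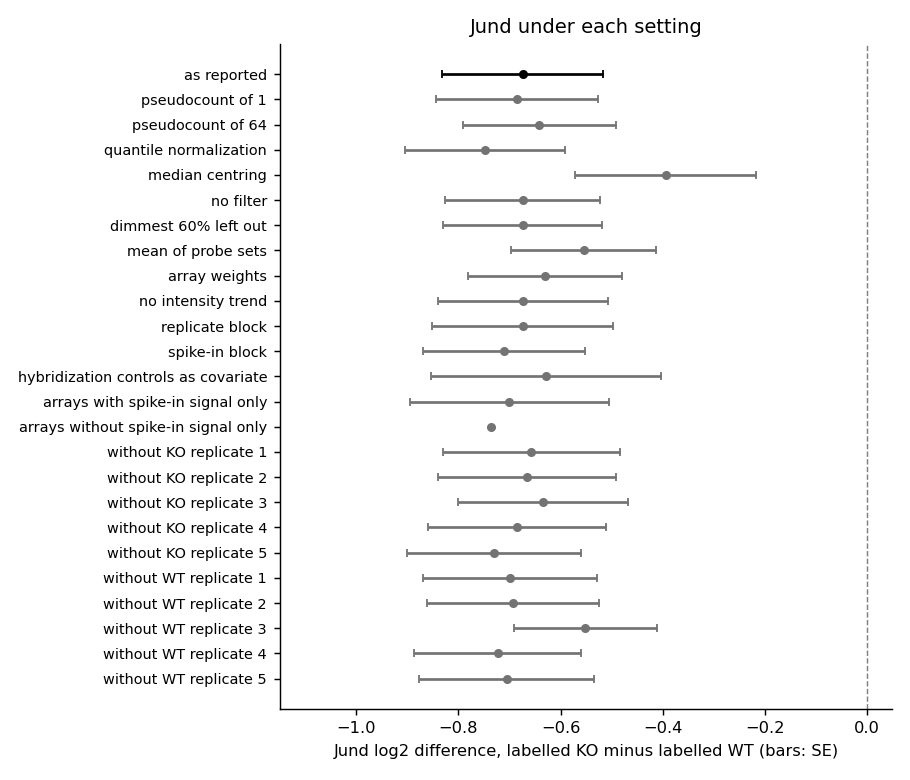
Jund log2 difference (labelled KO minus labelled WT, points, with SE as bars) as reported and under each other setting. The set of arrays without spike-in signal has a single KO-labelled array and no bar. All values lie below 0, from -0.75 with quantile normalization to -0.39 with median centring.

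Of the 6 members bright enough to be tested by gene, 0 passed the limma threshold at an adjusted p below 0.05, where 0.0733% of tested genes passed. At an unadjusted limma p below 0.05 there was 1, Jund, where 17.2% of tested genes were. Of the 13 probe sets 0 passed, as did 0 of all 45037 probe sets, and 1 had an unadjusted limma p below 0.05, against 12.6% of all. The other 3 members (Fosb, Fosl1 and Junb) lay below the brightness limit, a mean log2 value of 5.83, and their values come from the probe set fit. As deposited, 5 of the 6 tested members were lower in KO-labelled mice, with a median of -0.18 against -0.01 for all tested genes. Of all tested genes 50.9% were lower. With median centring only Jund and Fos (-0.0060) of the 6 were lower.

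**Figure D3:**
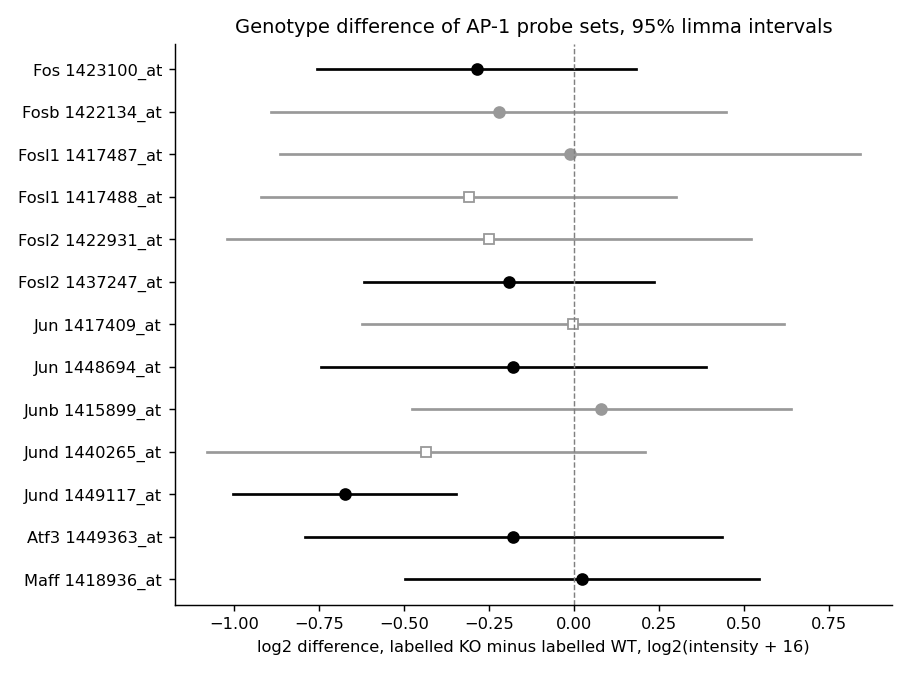
Log2 difference (labelled KO minus labelled WT, on log2(intensity + 16)) of each AP-1 probe set, with 95% limma intervals from the fit over all probe sets. Black circles are the 6 members tested by gene, grey circles the 3 members below the brightness limit, and open squares the second probe sets of a gene. Only the interval of Jund 1449117_at lies wholly below 0.

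Among the Fos genes, Fos itself gave a high signal in both groups. Probe set 1423100_at, at percentile 94.8 of mean signal on the array, read 1713, 1041, 844, 1385 and 1768 in KO-labelled mice and 963, 2179, 1775, 1560.2 and 1728 in WT-labelled mice. The lowest values, KO replicate 3 and WT replicate 1, came from both groups, and the groups overlapped over most of their range. The difference was -0.29 (SE 0.23, 95% interval -0.77 to 0.20, limma adjusted p = 0.542), so a change of up to 0.77 downwards or 0.20 upwards on the log2 scale lies inside the interval. Among the 7 arrays with spike-in signal the difference was 0.06 (SE 0.24). The 3 without it gave -1.19 for KO replicate 3 alone, the lowest Fos array, against WT replicates 2 and 5, with no replicate check.

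Fosl2 encodes Fra-2, a Fos protein without the strong activation domain of Fos. Its brighter probe set, 1437247_at (percentile 82.1), read 342, 215, 221, 246 and 169 in KO-labelled mice and 213, 298, 307, 213 and 330.3 in WT-labelled mice. The highest and the lowest array of all were both KO-labelled, replicates 1 and 5, and the difference was -0.19 (SE 0.20, 95% interval -0.62 to 0.24). The dimmer probe set 1422931_at averaged 27.1 ± 14.4 in KO-labelled and 35.99 ± 18.6 in WT-labelled mice (SD, n = 5 each), with a low array in each group, at 3.96 and 5.89.

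Fosb and Fosl1 were dim, below the brightness limit, and their probe sets ranked near the middle of all probe sets by mean signal or lower. Fosb, whose stable splice product accumulates in striatal neurons on repeated stimulation, averaged 20.7 ± 8.56 in KO-labelled and 27.7 ± 13.1 in WT-labelled mice (SD, n = 5 each; percentile 45.3). KO replicate 4 at 6.60 and WT replicate 4 at 5.33 were low, and the other arrays lay between 18.4 and 40.04. Fosl1, which encodes Fra-1, ranged from 11.5 to 55.9 in KO-labelled and from 1.76 to 59.8 in WT-labelled mice on probe set 1417487_at. Its other probe set, 1417488_at, was at percentile 22.9 and averaged 7.58 ± 6.06 in KO-labelled and 14.7 ± 13.0 in WT-labelled mice. The differences were -0.22 (SE 0.32) for Fosb and -0.01 (SE 0.41) and -0.31 (SE 0.29) for the 2 Fosl1 probe sets, in the fit over all probe sets.

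Jun, the partner of Fos in the classical AP-1 dimer, varied widely among WT-labelled mice. Probe set 1448694_at (percentile 87.7) read 594, 434, 516, 331 and 337 in KO-labelled mice and 349, 1021, 285, 469 and 582 in WT-labelled mice. WT replicate 2 was the highest array of all, and the other WT-labelled mice covered the same range as the KO-labelled ones. The difference was -0.18 (SE 0.28, 95% interval -0.77 to 0.42, limma adjusted p = 0.786). On probe set 1417409_at the values were 87.6, 54.0, 64.6, 45.4 and 56.3 in KO-labelled mice and 43.8, 31.9, 60.7, 67.9 and 126 in WT-labelled mice. There WT replicate 2 was the lowest array of all and the difference was 0 to within its error (-0.0027, SE 0.30). The 2 Jun probe sets thus ranked WT replicate 2 at opposite ends.

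Junb, an immediate early Jun gene whose protein can restrain Jun, gave almost no signal on its only probe set. Values of 1415899_at ran from 5.16 to 18.4 in KO-labelled and from 1.49 to 25.4 in WT-labelled mice, at percentile 24.2 of mean signal. Whether the transcript is scarce or this probe set reads it poorly was not tested. The difference was 0.08 (SE 0.27).

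Atf3, a stress-induced factor that limits inflammatory gene expression in macrophages, read 137, 57.9, 61.8, 113 and 48.7 in KO-labelled mice and 78.2, 145, 93.2, 52.2 and 105 in WT-labelled mice. Each group held low and high mice, and the SD of 38.9 in KO-labelled and 34.2 in WT-labelled mice exceeded the gap between the means of 83.7 and 94.6. The difference was -0.18 (SE 0.28, 95% interval -0.78 to 0.42, limma adjusted p = 0.787). Maff read 225, 209.6, 179, 279 and 194 in KO-labelled mice and 110.3, 239, 259.8, 168 and 355 in WT-labelled mice. The KO-labelled mice lay inside the range of the WT-labelled mice, which held both the lowest and the highest array. The difference was 0.02 (SE 0.25, 95% interval -0.51 to 0.55, limma adjusted p = 0.973).

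Correlations between members over the mice were mostly positive, and 0 of the 36 pairs passed after adjustment. With group means removed, 32 of the 36 pairs (88.9%) had a positive Pearson correlation over the 10 arrays, with a median of 0.27, where 50.7% of all pairs of genes on the array had one, with a median of 0.007. Among the 6 brighter members 14 of the 15 pairs (93.3%) were positive, with a median of 0.41, where 50.3% of all pairs of tested genes were, with a median of 0.003. The pairs share members, so they are not independent of each other. Arrays share their scaling, so values on an array are not independent of each other. The closest pair was Fosl2 and Atf3, with Pearson r = 0.85 and Spearman rho = 0.85 (permutation p = 0.0023 and 0.0029, adjusted over 36 pairs 0.084 and 0.105). Without the 2 arrays farthest from the median of Fosl2 r was 0.74, and over the 7 arrays on which spike-ins gave signal r was 0.88. KO replicate 1 was high for both genes, and KO replicate 5 was the lowest array for both.

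Fos and the dim Fosl1 followed with r = 0.81 and rho = 0.73 (permutation p = 0.0049 and 0.020, adjusted 0.089 and 0.245), at 0.63 without the 2 farthest arrays. Fosl2 and Maff had r = 0.67 and rho = 0.73 (permutation p = 0.030 and 0.020, adjusted 0.358 and 0.245), and 0.91 without the 2 arrays farthest from the Fosl2 median. Of the 36 pairs, 3 had an unadjusted permutation p below 0.05. With quantile normalization 2 pairs passed, Fosl2 with Atf3 and Fos with Fosl1 (adjusted permutation p = 0.043 for both). Without KO replicate 1 the pair Fosl2 and Maff passed (r = 0.85, adjusted permutation p = 0.047), and without WT replicate 5 the pair Fos and Fosl1 (r = 0.91, adjusted permutation p = 0.014). Jun and Jund had r = -0.59 (rho = -0.44, permutation p = 0.076 and 0.204).

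**Figure D4:**
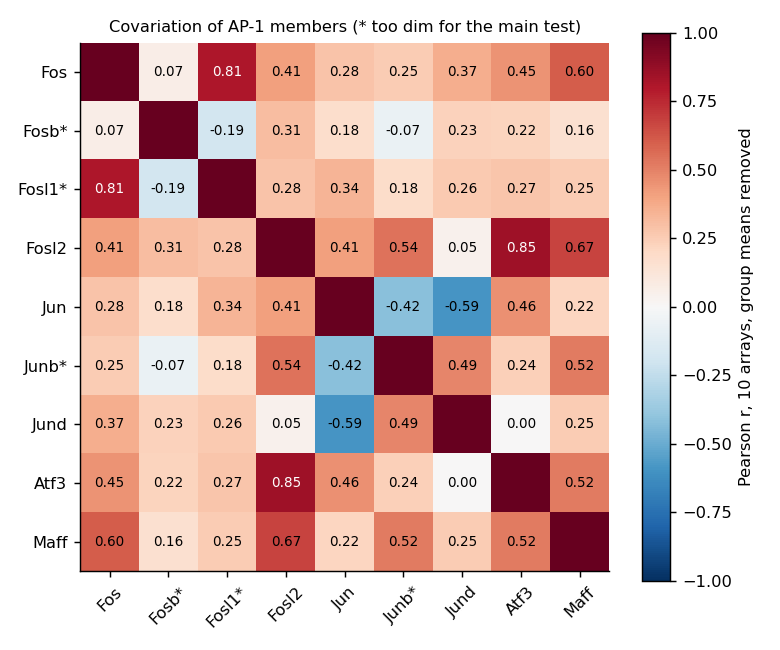
Pearson r between each pair of AP-1 members over the 10 arrays with group means removed, from -1 in blue to 1 in red, using the brighter probe set of each gene. Asterisks mark the 3 dim members. The highest values are 0.85 for Fosl2 with Atf3 and 0.81 for Fos with Fosl1, and the lowest is -0.59 for Jun with Jund.

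Genes whose levels followed a member most closely over the 10 arrays were ranked among the 10910 tested genes that are not members. For Fos these were Mid2 (r = 0.95), Tec (0.91), Cited2 (0.91) and Mbtps1 (0.90). For Atf3 they were Myom1 (0.95), Fyb (0.95), Mtif3 (0.92) and Alg12 (0.92). For the dim Junb they were Kdelr2 (0.96), Ddx20 (0.94), Tmem39a (0.90) and Adgrg6 (0.90). These are the highest of very many correlations over few arrays and are given as a description. Without the 2 arrays farthest from the member's median they ranged from 0.75 to 0.88 for Fos, from 0.89 to 0.95 for Atf3 and from 0.77 to 0.94 for Junb.

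The genes around AP-1 were read from 7 lists, and 0 of their genes passed the limma threshold. The lists share some genes and are not independent readings. Ddit3, for example, is among the lower genes of both the leucine zipper and the stress list. Other leucine zipper genes, many of which can pair with the members, had 25 tested genes with a median difference of -0.06, of which 1 was higher and 3 were lower at an unadjusted limma p below 0.05. Across all tested genes these shares were 8.29% higher and 8.96% lower. Creb1, which binds the element marked in the Fos promoter and drives Fos transcription on neuronal activity, averaged 585 ± 46.6 in KO-labelled and 415 ± 49.7 in WT-labelled mice, with no overlap (SD, n = 5 each; log2 0.49, SE 0.15, limma adjusted p = 0.114). It was picked for the smallest p in its list, and 4.68% of all tested genes had groups without overlap in either direction. Mafg, a small Maf gene like Maff, averaged 42.6 ± 32.4 in KO-labelled and 90.8 ± 30.5 in WT-labelled mice (log2 -1.05, SE 0.39, limma adjusted p = 0.177).

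The 24 tested immediate early genes outside AP-1 had a median difference of -0.03, with 2 higher and 4 lower at an unadjusted limma p below 0.05. Of all tested genes 8.29% were higher and 8.96% lower at that limit. Ier3, an early gene also driven by NF-kB, averaged 336 ± 108 in KO-labelled and 553 ± 104 in WT-labelled mice (log2 -0.73, SE 0.21, limma adjusted p = 0.099). Homer1, whose short early form remodels synapses, averaged 1375 ± 866 in KO-labelled and 559 ± 377 in WT-labelled mice (log2 1.37, SE 0.40, limma adjusted p = 0.106). Ier3 and Homer1 lay on opposite sides of 0. They were picked for the smallest p in the list, so their size does not describe the list as a whole.

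Genes known to carry AP-1 sites or to depend on AP-1 in other tissues had 22 tested members and a median of -0.13. At an unadjusted limma p below 0.05, 2 were higher and 4 lower, against 8.29% and 8.96% of all tested genes. The 2 higher genes were Penk and Gja1, which are also a striatal and an astrocyte marker below. Mmp14, a membrane-bound metalloproteinase, averaged 73.7 ± 17.7 in KO-labelled and 133 ± 28.3 in WT-labelled mice (log2 -0.74, SE 0.22, limma adjusted p = 0.112). Mt2, a metal-binding metallothionein, was at log2 -0.73 (SE 0.23, limma adjusted p = 0.12). Stress genes regulated with Atf3 had 12 tested members and a median of -0.05, with 1 higher and 2 lower at the same limit. Hspa5, the chaperone of the endoplasmic reticulum, averaged 4168 ± 668 in KO-labelled and 2895 ± 333 in WT-labelled mice (log2 0.52, SE 0.14, limma adjusted p = 0.088), and the glutathione-degrading enzyme gene Chac1 was at log2 -0.56 (SE 0.20, limma adjusted p = 0.157).

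Upstream of Fos and Jun, the 31 tested genes for MAP kinases, the serum response factor and related factors had a median of 0.16. At an unadjusted limma p below 0.05, 5 were higher and 2 lower, against 8.29% and 8.96% of all tested genes. Rps6ka5, a kinase that phosphorylates CREB and histone H3, averaged 222 ± 39.1 in KO-labelled and 145 ± 32.4 in WT-labelled mice without overlap (log2 0.57, SE 0.19, limma adjusted p = 0.146). It too was picked for the smallest p in its list, and 4.68% of all tested genes had groups without overlap in either direction. Mrtfb, a coactivator of the serum response factor, was at log2 0.51 (SE 0.17, limma adjusted p = 0.150). Among 5 tested phosphatases that switch MAP kinases off the median was 0.02, with 0 at an unadjusted limma p below 0.05, Dusp6 at log2 0.58 (SE 0.29) and Dusp10 at -0.33 (SE 0.23). The 16 tested cofactors of Fos and Jun had a median of 0.20 and 0 at an unadjusted limma p below 0.05, with Crebbp at log2 0.28 (SE 0.14) and Sfpq at 0.71 (SE 0.37).

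**Figure D5:**
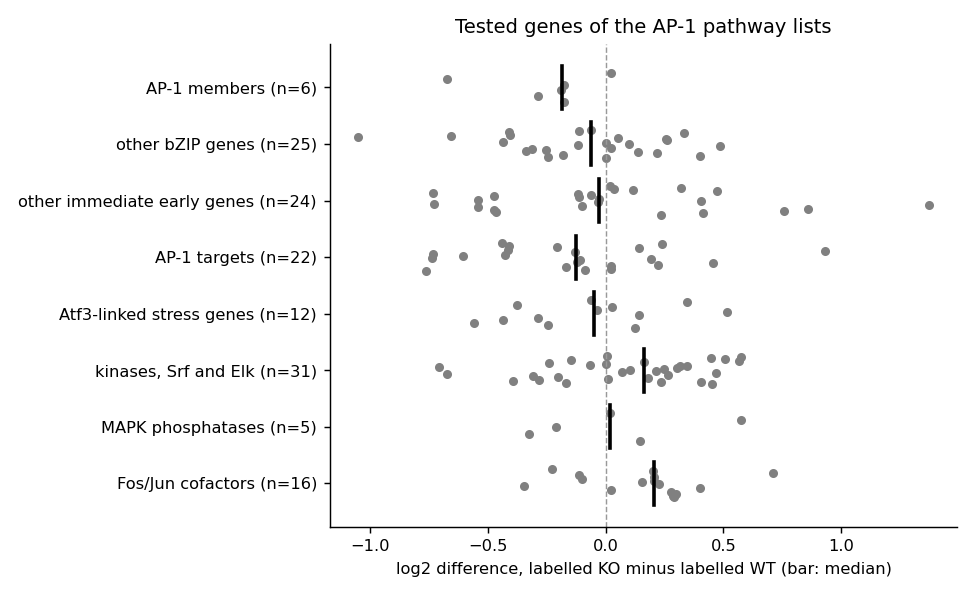
Log2 difference (labelled KO minus labelled WT) of every tested gene in the AP-1 list and the 7 lists around it, 1 point per gene with the list median as a bar and the number of tested genes in brackets. Medians run from -0.18 for the AP-1 members to 0.20 for the cofactors, and genes lie on both sides of 0 in each list.

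Cell type markers were set beside these values. Of 10 preoptic markers, 9 were on the array and 6 were bright enough to test, with Gal and Esr1 the brightest, and Nkx2-1, Hmx2 and Sim1 were below the limit. The mean log2 level of the 9 was 6.82 to 7.25 in KO-labelled and 6.87 to 7.12 in WT-labelled mice. The 6 tested preoptic genes had a median difference of 0.17, with 4 higher and 2 lower, where 50.9% of all tested genes were lower. At an unadjusted limma p below 0.05, 1 was higher and 0 lower, against 8.29% and 8.96% of all tested genes. Striatal markers, with Tac1 and Penk the brightest, were at 7.03 to 8.52 in KO-labelled and 6.62 to 7.17 in WT-labelled mice. The median difference of their 6 tested genes was 1.33. Of the 6, 5 were higher, where 50.9% of all tested genes were lower. All 5 had an unadjusted limma p below 0.05, where 8.29% of all tested genes were higher at that limit. Only Tac1 passed the limma threshold, where 0.0733% of all tested genes passed. All 5 tested endothelial genes (Slc2a1 and Flt1 brightest) and all 3 tested microglial genes (Csf1r and Cx3cr1 brightest) were lower in KO-labelled mice, where 50.9% of all tested genes were lower. None of the 8 passed the limma threshold, and 2 endothelial genes and 1 microglial gene were lower at an unadjusted limma p below 0.05, against 8.96% of all tested genes. The microglial gene was Csf1r, at 5282 ± 687 in KO-labelled and 7973 ± 1571 in WT-labelled mice without overlap (SD, n = 5 each; log2 -0.58, SE 0.15, limma adjusted p = 0.076). Groups without overlap and KO-labelled mice lower were found in 2.75% of all tested genes. The markers below the brightness limit went both ways. Endothelial Cdh5 (log2 -0.47) and microglial Trem2 (-0.41), C1qb (-0.34) and Aif1 (-0.27) were lower. Endothelial Pecam1 (0.11), Kdr (0.06) and Tie1 (0.02) and microglial P2ry12 (0.39) and Tmem119 (0.36) were higher. List levels were 6.39 to 6.93 in KO-labelled and 6.72 to 7.14 in WT-labelled mice for endothelium and 6.46 to 7.03 in KO-labelled and 6.77 to 7.09 in WT-labelled mice for microglia. The part of these cell types in the Jund difference was not tested.

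Neurons (Nefl and Syt1 brightest), astrocytes (Aldoc and Gfap), oligodendrocytes (Mbp and Mobp) and mural cells (Acta2 and Rgs5) had medians of 0.08, -0.05, 0.04 and -0.11, and their list levels overlapped between the groups. At an unadjusted limma p below 0.05, 3 of 10 tested neuronal genes were higher and 0 lower, 1 of 8 astrocyte genes was higher and 2 were lower, 1 of 6 oligodendrocyte genes was higher and 0 lower, and 0 of 8 mural genes were on either side. Of all tested genes 8.29% were higher and 8.96% lower at that limit. Gfap, the intermediate filament gene of astrocytes, averaged 4995 ± 1016 in KO-labelled and 8282 ± 1569 in WT-labelled mice without overlap (SD, n = 5 each; log2 -0.73, SE 0.16, limma adjusted p = 0.057), a smaller adjusted p than that of Jund. Aldoc was at log2 -0.29 (SE 0.11, limma adjusted p = 0.184), also without overlap. Of all tested genes 2.75% had groups without overlap and KO-labelled mice lower. The part of astrocytes in the Jund difference was not tested either. Choroid plexus and ependyma (Rarres2 and Ccdc153) had a median of 0.34 over 5 tested genes, with 4 higher and 1 lower. Blood cells (S100a8 and Ngp) had a median of -0.34 over 4 tested genes, all 4 lower, with levels of 5.21 to 6.27 in KO-labelled and 5.21 to 7.11 in WT-labelled mice. Of all tested genes 50.9% were lower. In both lists 0 genes had an unadjusted limma p below 0.05. The ratio of 3′ to 5′ control signal, a sign of RNA length, was 33.2 to 51.5 in KO-labelled and 24.6 to 53.4 in WT-labelled mice for Gapdh. For actin the ratio was 112 to 298 in KO-labelled and 116 to 355 in WT-labelled mice. WT replicate 3, the highest array on the brighter Jund probe set, had the highest ratio for both, 53.4 for Gapdh and 355 for actin. This array also had the highest mean of the hybridization controls, 12.18 on the log2 scale. The part of RNA length in the Jund difference was not tested.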

How the data were processed

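RNA of the laser-captured preoptic region was amplified in 2 rounds and biotin-labelled, per the labels' protocols, and measured on 1 array per mouse (10 arrays). The authors deposited probe set intensities on a linear scale, and the submitters' processing notes name GCOS as the software, whose version and settings were not given in the sources used here. Each array had the same mean intensity, 200.002, without the lowest and highest 2% of probe sets, so arrays were scaled as a whole and the shape of the distributions was left in place.

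Probe sets were named from the platform annotation, which can be old: 34945 named 1 gene, 932 several, 9160 none and 64 were controls. By Entrez ID 34741 of those with 1 gene matched RefSeq. For each gene the probe set of highest mean log2 was used (names ending in _x_at only if there was no other), and the dimmest 40% were left out. Values were taken as log2(intensity + 16), which understates changes of dim genes, and tested with limma (lmFit, eBayes with a trend), genotype as the only term. Calls needed a Benjamini-Hochberg adjusted p below 0.05 over all genes, or over all 45037 probe sets for single probe sets. Exact permutation tests used all 252 arrangements, and pair correlations 100000 resamples. Promoters are the 250 bases before each start in the RefSeq table, which held 8 of the 9 members.

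Members, lists and tests were chosen with earlier results of these data known. Named genes are the members, Ptges, the 2 tested genes of each list with the smallest p, the 4 genes most correlated with Fos, Junb and Atf3, and the 2 brightest genes of each marker list. The 3 dim preoptic markers, the dim endothelial and microglial markers, the dim phosphatases, Gja1 and Ddit3 were named in addition, after their values were seen. List genes missing under their symbol were looked up through RefSeq synonyms. Alternatives were quantile normalization, median centring, pseudocounts of 1 and 64, another limit on dim genes or none, averaging a gene's probe sets, a fit without the trend, array weights, the replicate number or the spike-in signal (mean of at least 100) as a block, each spike-in set of arrays alone and leaving out each array. The hybridization control covariate, all alternatives for the list genes, and the correlations over all pairs of genes were added after the data were seen. Replicates are separate mice by their numbers in the labels, so the spread behind each p-value holds that between mice and that of dissection, amplification and hybridization, and the number of arrays limits precision. Scripts were tested on simulated data. Analyses used R 4.3.3, limma 3.58.1, data.table (1.17.8), Python 3.11.15, numpy 2.4.6, pandas 2.3.3 and matplotlib 3.10.9.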

Additional observations from a re-analysis of the deposited data

Results flagged for a closer look

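In 3 of 26 sets of 5 arrays (13 probe sets in 2 groups), 1 array lay far from the others of its group on the log2 scale, where chance gives about 1 in 20. The gap to the nearest array, as a share of the group's whole range, was 0.824 for WT replicate 3, the highest WT-labelled array for Jund on 1449117_at, 0.815 for WT replicate 4, the lowest WT-labelled array for Fosb, and 0.728 for KO replicate 4, the lowest KO-labelled array for Fosl2 on 1422931_at. Without WT replicate 3 the Jund difference was -0.55 (SE 0.14, limma adjusted p = 0.069).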

How the results depend on the processing

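Of the AP-1 members, 0 passed the limma threshold under each of 24 other settings (smallest adjusted p = 0.052, with the dimmest 60% of genes left out), and 0 probe sets passed under 21 (smallest 0.130). Jund stayed lower in KO-labelled mice throughout, from -0.75 to -0.39. The count over all genes tested, 8, was 24 with a pseudocount of 64, 1053 with median centring (1027 higher, where 2 of the 8 were), 3 with no filter, 65 with the dimmest 60% left out, 1 with the mean of probe sets, 112 with array weights, 16 with the spike-in block, 1 within the 3 arrays without spike-in signal (the single KO-labelled array assumed to vary like the other 2), and 0 to 39 when single arrays were left out. It was 0 by limma with quantile normalization, no trend, the hybridization covariate and the 7 arrays with spike-in signal, with 1630, 1883, 1318 and 1500 genes at an unadjusted p below 0.05. The replicate block gave 2. The correlation of deviations between same-numbered arrays was -0.13 to 0.07, which cannot settle whether the numbers mark pairs of samples. The block changed no call of a member, and with it the limma adjusted p of Jund was 0.139. Of the list genes, 14 passed with median centring, which shifts all genes up, and 0 under the other settings. Pairs past the adjusted threshold were 2 with quantile normalization and 0 to 1 with single arrays left out.

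Differences near 0 changed sign, and none of these was called. With median centring Fosb was at 0.059, Fosl1 at 0.27, Fosl2 at 0.089 and 0.029 (1422931_at), Jun at 0.10 and 0.28 (1417409_at) and Atf3 at 0.10. With quantile normalization Fosb was at 0.019, Fosl1 at 0.22 and Jun 1417409_at at 0.20. Over the 7 arrays on which spike-ins gave signal Fos was at 0.059, Fosl1 at 0.20, Jun at 0.19 and 0.0505 (1417409_at) and Atf3 at 0.15, and over the other 3, with 1 KO-labelled array and no replicate check, Junb was at -0.081 and Maff at -0.65. Fosl1 was at 0.27 with a pseudocount of 1, 0.14 with array weights and 0.50 with the hybridization covariate, where Atf3 was at 0.0019 and Maff at -0.078. Jun 1417409_at was at 0.019 with a pseudocount of 1 and 0.027 with the spike-in block. Leaving out single arrays gave -0.31 to 0.21 for Fosl1, -0.54 to 0.0057 for Fosl2 1422931_at, -0.36 to 0.081 for Jun, -0.17 to 0.22 for Jun 1417409_at, -0.053 to 0.26 for Junb and -0.19 to 0.20 for Maff, while Fos (-0.46 to -0.13), Atf3 (-0.35 to -0.03), Fosb (-0.46 to -0.06) and Fosl2 1437247_at (-0.32 to -0.09) kept their sign. The cause of these changes was not tested.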
